A study of Homo sapiens with 4 samples.

Results

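The 10 genes described here encode the Fos proteins (FOS, FOSB, FOSL1 and FOSL2), the Jun proteins (JUN, JUNB and JUND), EGR1, IER3 and MYC. They were taken by symbol from a table of 63677 genes, and 10 of the 10 passed the filter for low counts. IER3 is listed in 6 rows of that table, of which the 5 left out had 0 reads in each library. The list was drawn up as AP-1 and immediate early transcription factors, although IER3 encodes a protein that is not known as a DNA-binding factor.

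AP-1 is a transcription factor formed by a Jun protein paired with another Jun or with a Fos protein through their leucine zippers. Several of its genes, though not all, are immediate early genes, as are EGR1 and MYC. For these, growth factor receptors switch on ERK and related kinases, which act on factors already bound at the promoters. Their transcription then starts without new protein synthesis. FOS and EGR1 transcripts usually appear in a short burst after stimulation, whereas FOSL1, FOSL2 and JUND can stay expressed in growing cells, and FOSL1 is known for its abundance in mesenchymal breast cancer cells.

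RNA was sequenced from MDA-MB-231, an established triple-negative breast cancer cell line, after transfection with a control siRNA (siCt, 2 libraries) or with a pool of siRNAs against the receptor tyrosine kinase AXL (siAxl in the labels, siAXL here, 2 libraries). Both groups are the same line with the same transfection reagent, and they differ in the siRNA. The labels do not say whether the libraries of a group came from separate cultures, so the p-values measure the spread between these libraries, which may be technical, and the time from transfection to lysis is not given in the sources used here. The comparison asks which transcripts differ once AXL is depleted.

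Between 39574387 and 44585773 reads per library were counted on genes. AXL was at 29189 and 30617 normalized counts in siCt 1 and siCt 2 and at 8658 and 7141 in siAXL 1 and siAXL 2, so the siAXL mean was 26.4% of the siCt mean (log2 fold change -1.93, standard error, SE, 0.0918, limma adjusted p = 0.000585). The labelled cell line was checked against its markers. VIM and CD44 were high, at 86751 and 33968 normalized counts or more in each library, and ESR1 and PGR, the estrogen and progesterone receptor genes, had 3 reads or fewer in each library. EPCAM, expected to be low or absent in this line, was at 565 to 771 normalized counts. Per kb of annotated exon its mean was 265, above the median gene tested at 188. It was higher in siAXL by a log2 fold change of 0.32, which did not pass the test (limma adjusted p = 0.0513). Of the 9 markers, AXL included, ESR1 and PGR were left out of the test by the filter for low counts. Of the others, 4 passed the test between the groups, AXL as the siRNA target among them. Of all genes tested, 18.7% passed. EGFR, the epidermal growth factor receptor, rose from 7355 and 7136 normalized counts in siCt to 12921 and 15004 in siAXL (log2 fold change 0.94, limma adjusted p = 0.00166). CDH1, the gene of E-cadherin, was low and fell from 90.1 and 94.3 to 36.9 and 22.6 (-1.64, limma adjusted p = 0.00847). ERBB2 was not absent, and it rose from 3089 and 2949 to 3680 and 3536 (0.26, limma adjusted p = 0.0258). The part of these changes in the results on the 10 genes was not tested. No library repeated another: the chi-square over genes came to 20.1 per gene within siCt and 18.2 within siAXL, against 32.9 to 58.8 across the groups. Fewer cells of a type and less RNA per cell cannot be told apart in such bulk libraries.

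JUNB, FOSL2 and EGR1 differ in the short words held by their promoters, which are shown here because JUNB and FOSL2 passed the test in opposite directions and EGR1 holds words of the kind bound by serum response factor. The sequences are RefSeq windows of build GRCh38.p14 from 250 bases before to 50 bases after the annotated start, all on the plus strand. Capitals mark matches, on either strand, to TGACTCA (the AP-1 site, or TRE), TGACGTCA (the CRE), TGACATCA (a TRE variant), CACGTG (the E-box), TATAAA (the TATA box) or the CArG box of serum response factor.

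JUNB (chr19:12791236-12791535): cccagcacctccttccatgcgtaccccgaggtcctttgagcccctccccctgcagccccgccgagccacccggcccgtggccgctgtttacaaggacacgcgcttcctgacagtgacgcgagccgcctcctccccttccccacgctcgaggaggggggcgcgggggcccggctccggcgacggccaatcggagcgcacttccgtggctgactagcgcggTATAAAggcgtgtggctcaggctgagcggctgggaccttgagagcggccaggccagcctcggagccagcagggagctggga

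FOSL2 (chr2:28392608-28392907): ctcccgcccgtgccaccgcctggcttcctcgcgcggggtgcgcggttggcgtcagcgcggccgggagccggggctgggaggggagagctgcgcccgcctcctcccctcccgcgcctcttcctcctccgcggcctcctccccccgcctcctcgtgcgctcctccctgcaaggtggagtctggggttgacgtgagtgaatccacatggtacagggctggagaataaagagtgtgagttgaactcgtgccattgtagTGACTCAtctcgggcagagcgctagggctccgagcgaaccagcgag

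EGR1 (chr5:138465229-138465528): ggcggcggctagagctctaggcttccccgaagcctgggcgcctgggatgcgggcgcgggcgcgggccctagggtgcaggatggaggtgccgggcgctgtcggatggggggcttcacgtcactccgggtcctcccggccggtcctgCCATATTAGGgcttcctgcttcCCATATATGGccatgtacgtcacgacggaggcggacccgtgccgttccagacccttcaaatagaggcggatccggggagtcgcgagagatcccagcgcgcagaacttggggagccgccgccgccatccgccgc

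Windows were matched by symbol for 7 of the 10 genes, and none was matched for FOSL1, IER3 and MYC. The TRE was found in 1 of the 7, FOSL2, with its first base 5 bases into the transcript, and 4.92% of 27305 RefSeq windows of this length hold it. The CRE was found in JUND, against 1.98% of all windows, and the TRE variant in JUN, against 2.71%. Of the 7 windows, that of EGR1 was the only one with CArG boxes. It held a pair of them, CCATATTAGG and CCATATATGG, starting 105 and 83 bases before the start. Bases farther than 250 before the start were not searched in any gene. A CArG box occurs in 1.29% of all windows. TATAAA was found in FOS, FOSB and JUNB, between 33 and 30 bases before the start, and in 12.0% of all windows. The E-box was found in 0 of the 7 windows and in 7.43% of all. The GC box GGGCGG was found in 5 of the 7, and in 44.6% of all windows. These matches describe letters in the windows and were not measured as bound sites.

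The transcripts of these genes are compact. In GENCODE 29, the transcript with the longest coding sequence has at most 4 exons in each of the 10 genes, against 20.0% of 13021 coding genes tested. JUN, JUNB and JUND each have 1 exon, against 2.21% of those genes. The transcript spans less than 10 kb in 9 of the 10, from 1356 bases in IER3 to 8307 in FOSL1, whereas 22.3% of coding genes tested lie under 10 kb. FOSL2 is the exception at 24455 bases. The word ATTTA, the core of the AU-rich elements that mark short-lived mRNAs, occurs in the 3′ UTR of 10 of the 10 and in 66.6% of coding genes tested. Its density per kb of 3′ UTR was 8.40 in MYC, 8.14 in IER3 and 6.20 in FOS. It was 0.81 in EGR1, and the median over the 10 was 2.09, against 1.56 over coding genes tested. Of those coding genes, 40.9% had a density at least as high as the median of the 10.

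Levels between genes were compared as normalized counts per kb of annotated exon, over all 4 libraries. IER3 was the most abundant at 32397 ± 9240 (SD, n = 4), above 99.8% of genes tested, and was followed by FOSL1 at 4978 ± 270, JUND at 3005 ± 159 and JUN at 2199.9 ± 109. MYC at 1656 ± 70.6 and FOSL2 at 1606 ± 210 came next, close enough that their order depends on the length used. Per kb of annotated exon, FOSL2 was above MYC in each siCt library (1642 and 1884 against 1573 and 1646). It was below MYC in each siAXL library (1407 and 1490 against 1658 and 1746). JUNB was at 619 ± 82.1 and EGR1 at 104 ± 22.4 (SD, n = 4), the latter below the median gene tested, at 188. FOS and FOSB were lowest, at 15.6 ± 3.03 and 8.56 ± 1.14 normalized counts per kb, above 15.3% and 9.50% of genes tested. In the order of levels, each of the other neighbouring pairs was apart in all 4 libraries. The lengths cover the exons of all annotated isoforms, and isoform use was not measured. They were 3001 bases in MYC and 7157 in FOSL2, whereas the transcripts with the longest coding sequence have 2366 and 6708 bases. On those transcript lengths the order of MYC with FOSL2 and with JUN can differ, so the orders given hold for the exon lengths used.

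**Figure D1:**
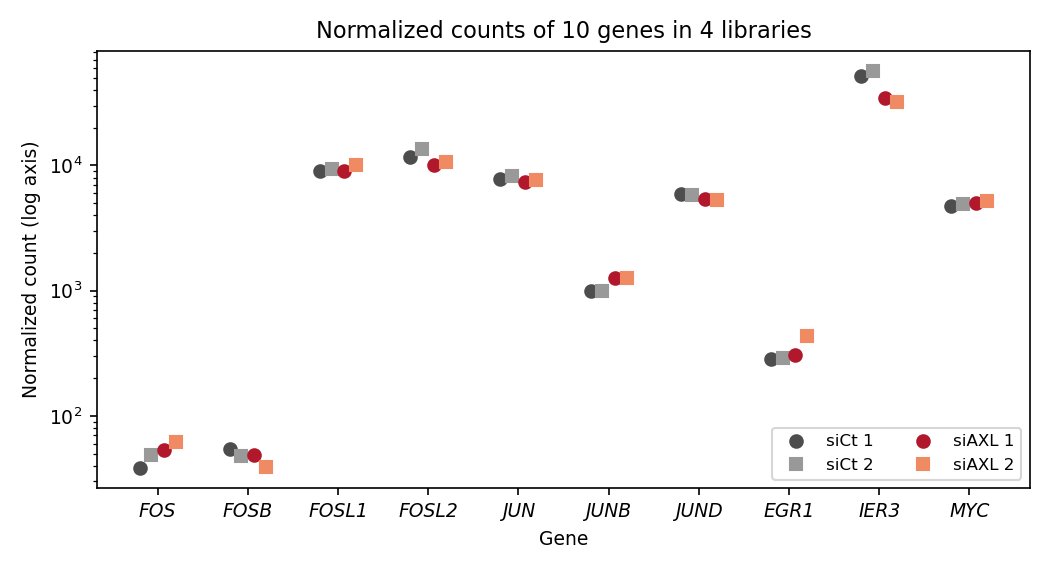
Normalized counts (vertical log axis) of the 10 genes in siCt 1, siCt 2, siAXL 1 and siAXL 2, 1 point per library. IER3 lies highest, between 32154 and 57252, and FOS and FOSB lowest, between 38.4 and 61.9. Both siAXL points lie below both siCt points in IER3, FOSL2, JUN and JUND and above them in JUNB, FOS, EGR1 and MYC. The groups did not overlap in 61.2% of all genes tested.

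Of the 10 genes, 3 passed the test between siAXL and siCt, at an adjusted p under 0.05 over all genes tested: IER3 and FOSL2 were lower in siAXL and JUNB was higher. Across the 16064 genes tested, 18.7% passed, 10.8% higher and 7.91% lower, so 3 of 10 is a share near the background. The values of the groups did not overlap in 8 of the 10, as they did in 61.2% of genes tested. The median log2 fold change of the 10 was -0.022, against -0.0022 over all genes tested, with 5 values above and 5 below 0. The median size of the change, without its sign, was 0.25, against 0.17. With 1 library left out, the log2 fold change lay between -0.78 and -0.64 in IER3 and between -0.38 and -0.18 in FOSL2. It lay between 0.32 and 0.34 in JUNB, and between 0.083 and 0.59 in EGR1.

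**Figure D2:**
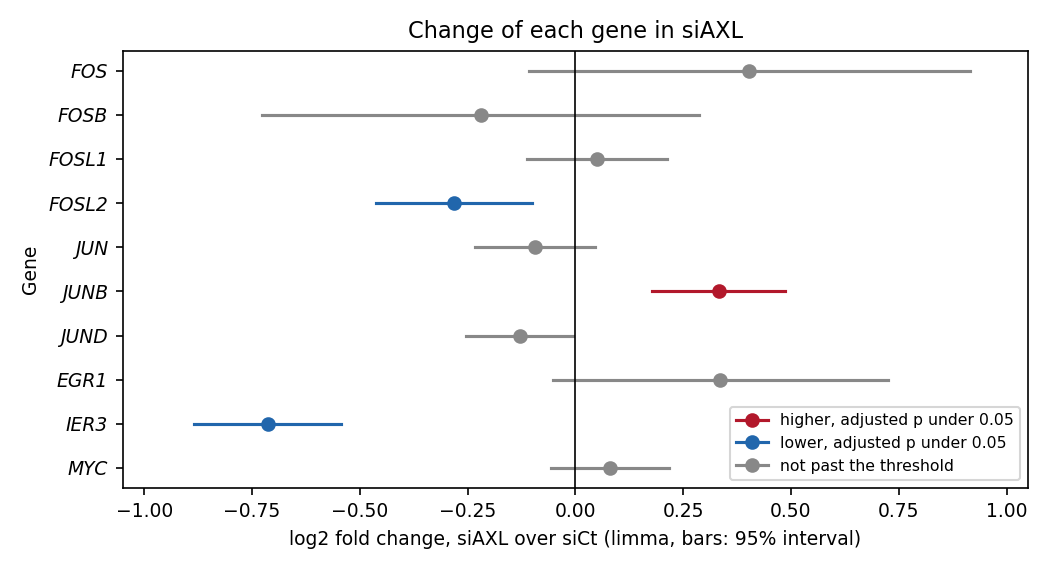
Log2 fold change of siAXL over siCt (horizontal axis) for each gene, as a point with its 95% limma interval, coloured by the test. The intervals of IER3 and FOSL2 lie below 0 and that of JUNB above it. That of JUND ends at -0.0052 and its adjusted p was 0.133, and the other 6 include 0.

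IER3 (ENSG00000137331, chromosome 6), an early response gene whose product is known to modulate cell survival and ERK and NF-kB signalling, changed most. Its normalized count was 51923 in siCt 1 and 57252 in siCt 2, and 34393 in siAXL 1 and 32154 in siAXL 2. Both siAXL libraries were below both siCt libraries, and the mean fell from 54587 ± 3768 to 33274 ± 1583 (SD, n = 2 in each), or to 61.0% of siCt. The log2 fold change was -0.71 (SE 0.0722, limma adjusted p = 0.00241). Leaving out single libraries moved the value from -0.78 to -0.64. In 11 other settings, which changed the pseudocount, the filter, the scaling, the test or left out 1 library, the adjusted p stayed under the threshold (at most 0.0253). IER3-AS1, which shares 359 exon bases with IER3 on the opposite strand, had 7 to 18 reads per library.

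Within the Fos family, FOSL2 fell and the other members did not pass the test. FOSL2 (ENSG00000075426, chromosome 2), which encodes FRA-2, had 11753 and 13486 normalized counts in siCt 1 and siCt 2, and 10068 and 10666 in siAXL 1 and siAXL 2. The siAXL libraries were both lower, at 82.1% of the siCt mean (12620 ± 1226 against 10367 ± 423, SD, n = 2 in each). The log2 fold change was -0.28 (SE 0.0766, limma adjusted p = 0.0445). This call was near the threshold. It was lost without siCt 2 (-0.18, adjusted p = 0.179), without siAXL 1 (-0.24, 0.168), without siAXL 2 (-0.32, 0.0694) and when every gene with at least 1 read was tested (adjusted p = 0.136).

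FOSL1 (ENSG00000175592, chromosome 11), which encodes FRA-1, was the most abundant Fos gene per kb and had 8999 and 9448 normalized counts in siCt and 9030 and 10092 in siAXL. The groups overlapped, and the log2 fold change was 0.050 (95% interval -0.11 to 0.21, limma adjusted p = 0.661). Its sign turned without siAXL 2 (-0.030). FOS (ENSG00000170345, chromosome 14), the founding member, had 38.4 and 48.8 normalized counts in siCt and 53.4 and 61.9 in siAXL, which rest on 40 to 63 reads per library. The siAXL libraries were both higher, but the interval of the log2 fold change of 0.40 was wide, from -0.11 to 0.91 (limma adjusted p = 0.242). FOSB (ENSG00000125740, chromosome 19), at 54.7 and 47.7 normalized counts in siCt and 48.6 and 39.3 in siAXL, overlapped between the groups (log2 fold change -0.22, 95% interval -0.73 to 0.29, limma adjusted p = 0.526). The intervals of FOS and FOSB were the widest of the 10.

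In the Jun family, JUNB rose. JUNB (ENSG00000171223, chromosome 19), often described as a less active partner that can hold back JUN, had 1002 and 991 normalized counts in siCt 1 and siCt 2, and 1252 and 1259 in siAXL 1 and siAXL 2. The groups did not overlap, with means of 1255 ± 4.82 in siAXL and 997 ± 7.51 in siCt (SD, n = 2 in each). These SDs are smaller than the sampling of 915 to 1289 reads per library would usually give, so they do not measure precision. The log2 fold change was 0.33 (SE 0.0655, limma adjusted p = 0.0166). With 1 library left out the value stayed between 0.32 and 0.34, but it was no longer past the threshold without siAXL 1 (adjusted p = 0.0771) or without siAXL 2 (0.0764). HOOK2 shares 259 exon bases with JUNB on the opposite strand, had 854 to 1235 reads per library and differed by 0.053 between the groups (limma adjusted p = 0.831). The strand setting of the counting is not given in the sources used here, so reads in the shared bases cannot be assigned to a strand.

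JUND (ENSG00000130522, chromosome 19), the most abundant Jun gene per kb, had 5894 and 5803 normalized counts in siCt and 5415 and 5281 in siAXL. Both siAXL values were lower, and the log2 fold change of -0.13 (95% interval -0.25 to -0.0052) did not pass the test (limma adjusted p = 0.133). JUN (ENSG00000177606, chromosome 1), the namesake of the family, had 7797 and 8288 normalized counts in siCt and 7353 and 7713 in siAXL. Again both siAXL values were lower, by an amount that did not pass (log2 fold change -0.094, 95% interval -0.23 to 0.045, limma adjusted p = 0.310).

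The makeup of each family was read as the share of its normalized counts per kb. FOSL1 took 74.1% and 72.4% of the Fos family in siCt 1 and siCt 2 and 77.0% and 77.9% in siAXL 1 and siAXL 2, while FOSL2 took 25.5% and 27.3% in siCt and 22.6% and 21.7% in siAXL. FOS and FOSB together took under 1% in each library, at 0.10% to 0.28% each. Of the Jun family, JUNB took 9.31% and 9.08% in siCt and 12.1% in both siAXL libraries, JUND 49.7% to 53.5% and JUN 36.6% to 39.0%. The shares of FOSL1, FOSL2, FOS, JUNB and JUND did not overlap between the groups, and those of JUN and FOSB did. For comparison, the normalized counts of 61.2% of genes tested did not overlap. Shares within a family are not separate results, since FOSL1 and FOSL2 nearly fill the Fos sum and one rises as the other falls. The counts of FOSL1 itself overlapped between the groups. The shares are given as a description, since the smallest two-sided p of an exact permutation test here is 0.333. The summed Fos level was 1.09 and 1.15 times the summed Jun level in siCt and 1.10 and 1.20 times in siAXL, and these ratios overlapped between the groups.

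**Figure D3:**
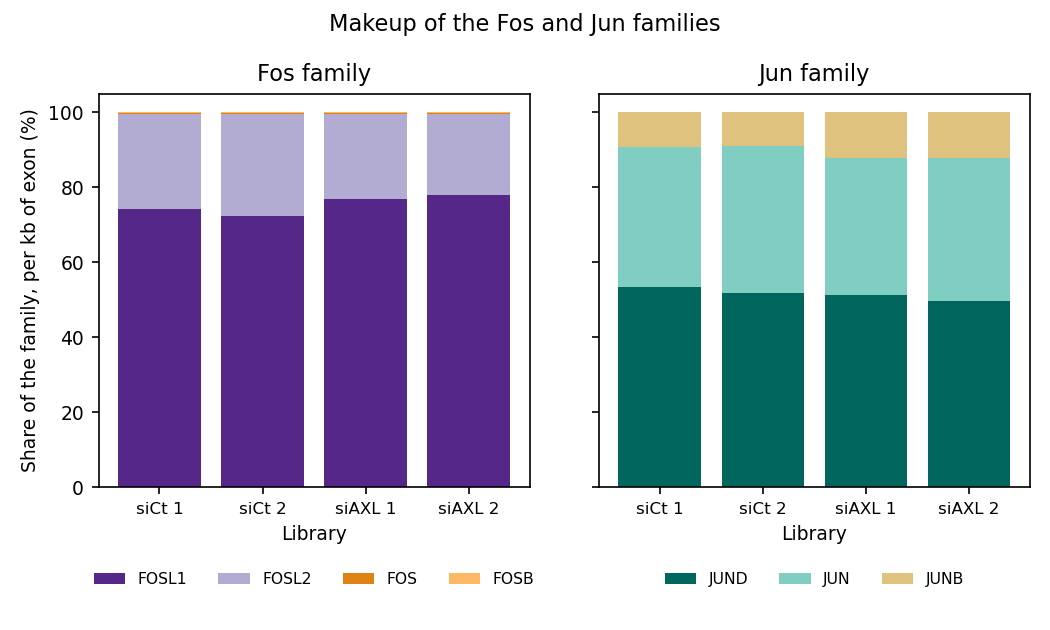
Share of each gene in the summed level of its family (vertical axis, percent of normalized counts per kb of exon), 1 bar per library, for the Fos family and the Jun family. FOSL1 fills 72.4% to 77.9% of the Fos bars, FOS and FOSB are barely visible, and JUNB widens from about 9.19% in siCt to 12.1% in siAXL.

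EGR1 (ENSG00000120738, chromosome 5), a zinc finger factor induced through serum response factor, had 286 and 288 normalized counts in siCt 1 and siCt 2, and 304 and 432 in siAXL 1 and siAXL 2. Both siAXL values were above siCt, but they lay far apart, with a mean of 368 ± 90.8 against 287 ± 1.74 (SD, n = 2 in each). The siCt SD is smaller than the sampling of 298 and 266 reads would usually give. The log2 fold change of EGR1 was 0.34 (95% interval -0.053 to 0.73, limma adjusted p = 0.201). It depended on siAXL 2: it was 0.59 without siAXL 1 (adjusted p = 0.0360) and 0.083 without siAXL 2 (adjusted p = 0.771).

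MYC (ENSG00000136997), which drives growth and ribosome production as a dimer with MAX, had 4722 and 4941 normalized counts in siCt and 4976 and 5238 in siAXL. The siAXL values were both higher, by little. The log2 fold change of 0.080 (95% interval -0.057 to 0.22, limma adjusted p = 0.383) did not pass the test.

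The genes around these factors were read from 6 lists, in which the 10 genes themselves are left out, and each count stands beside the 18.7% of all genes tested that passed. Of 33 other immediate early genes tested, 16 passed, 8 higher and 8 lower in siAXL, with a median log2 fold change of 0.072. ZFP36L1, an RNA-binding protein that speeds the decay of AU-rich mRNAs, rose by 0.66 (SE 0.0643, limma adjusted p = 0.00219). Its paralog ZFP36L2 fell by 0.55 (SE 0.0608, limma adjusted p = 0.00304). CSRNP1, a nuclear early response protein, rose by 0.58 (SE 0.0879, limma adjusted p = 0.0074), and PTGS2, the inducible cyclooxygenase, fell by 0.39 (SE 0.0619, limma adjusted p = 0.00823). MCL1, an anti-apoptotic BCL2 relative, rose by 0.37 (SE 0.0594, limma adjusted p = 0.00868). These 5 genes kept their calls in each of the 11 settings. KLF4, a zinc finger factor, rose by 0.34 (limma adjusted p = 0.0121, or 0.0707 without siAXL 1). IER5 fell by 0.33 (0.0134, or 0.0518 without siAXL 1 and 0.0524 with every gene of at least 1 read tested), and SOCS3, a feedback inhibitor of cytokine signalling, by 0.35 (0.0154, or 0.0740 without siAXL 2). The count was 7 without siAXL 1, 8 without siAXL 2 and 8 when every gene with at least 1 read was tested.

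Upstream, 8 of 31 kinases and promoter factors tested passed, 7 higher and 1 lower, with a median log2 fold change of 0.032. RPS6KA2, a ribosomal S6 kinase activated by ERK, rose by 0.57 (SE 0.0631, limma adjusted p = 0.00304). ELK3, a ternary complex factor that binds with serum response factor, rose by 0.47 (SE 0.0614, limma adjusted p = 0.00458). MAPK13, a p38 kinase, rose by 0.35 (SE 0.0520, limma adjusted p = 0.00675), and these 3 genes kept their calls in each of the 11 settings. MAP2K1, which encodes the kinase MEK1, rose by 0.47 (limma adjusted p = 0.00908, or 0.0512 with every gene of at least 1 read tested). It shares 216 exon bases with SNAPC5 on the opposite strand. SRF, the serum response factor itself, fell by 0.27 (SE 0.0519, limma adjusted p = 0.0156), and lost its call without siAXL 1 (0.0845) and without siAXL 2 (0.0656). The count was 4 without siAXL 1, 4 without siAXL 2, 5 without siCt 2 and 4 when every gene with at least 1 read was tested. Among other leucine zipper factors that can pair with Fos or Jun proteins, or share their class, 4 of 24 tested passed, 2 higher and 2 lower, with a median of -0.031. NFE2L1 rose by 0.37 (SE 0.0559, limma adjusted p = 0.00699) and kept its call in each of the 11 settings. ATF6B, a stress-response factor of the endoplasmic reticulum, rose by 0.29 (limma adjusted p = 0.0149), and it shares 71 exon bases with TNXB on the same strand. MAFG, a small Maf protein, fell by 0.27 (0.0180) and shares 105 exon bases with SIRT7 on the same strand. CEBPB, a leucine zipper factor of the C/EBP family, fell by 0.32 (0.0335). These last 3 genes lost their calls without siAXL 1 (adjusted p 0.0657 to 0.0940) and without siAXL 2 (0.0593 to 0.134), and with every gene of at least 1 read tested (0.0516 to 0.0999). MAFG and CEBPB lost theirs without siCt 2 too (0.0533 and 0.102). The count of 4 was 1 without siAXL 1, 1 without siAXL 2, 2 without siCt 2 and 1 when every gene with at least 1 read was tested.

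Downstream, 13 of 29 genes known as AP-1 targets passed, 9 higher and 4 lower, with a median log2 fold change of 0.17. MMP1, a collagenase with a classical AP-1 site, had 5790 and 6197 normalized counts in siCt 1 and siCt 2, and 11327 and 15096 in siAXL 1 and siAXL 2. Both siAXL values were above both siCt values, and the log2 fold change was 1.13 (SE 0.124, limma adjusted p = 0.0030). ITGB4, an integrin subunit, rose by 0.70 (SE 0.0647, limma adjusted p = 0.00205), and MMP14, a membrane-bound matrix protease, by 0.47 (SE 0.0644, limma adjusted p = 0.0053). These 3 genes kept their calls in each of the 11 settings. CCND1, which encodes cyclin D1, fell by 0.22 (SE 0.0544, limma adjusted p = 0.0320), a call lost whenever 1 library was left out (adjusted p 0.101 to 0.157) and with every gene of at least 1 read tested (0.0715). The cytokine genes IL6 and LIF fell by 0.27 (limma adjusted p = 0.0429) and 0.20 (0.0479), and both lost their calls without siCt 2, without siAXL 1, without siAXL 2 and with every gene of at least 1 read tested. LIF also lost its call without siCt 1, with TMM scaling (adjusted p = 0.0565), with edgeR (0.0576) and with DESeq2 (0.0506), so that it was called in 3 of the 11 settings. Scaling by total reads gave 8 higher and 6 lower. The count was 7 without siAXL 1, 7 without siAXL 2 and 4 when every gene with at least 1 read was tested.

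In the MYC network, 4 of 14 dimer partners and related genes passed, 3 higher and 1 lower, with a median of 0.050. MXI1 and MXD4, which pair with MAX and oppose MYC, rose by 0.75 (SE 0.0727, limma adjusted p = 0.00219) and 0.70 (SE 0.0743, limma adjusted p = 0.00273), and both kept their calls in each of the 11 settings. MLXIP rose by 0.19 (limma adjusted p = 0.0493), a call lost whenever 1 library was left out, with total reads scaling (0.0561), with DESeq2 (0.0642) and with every gene of at least 1 read tested (0.1001). MLX, its partner, fell by 0.21 (limma adjusted p = 0.0420), a call lost without siCt 2, siAXL 1 or siAXL 2, with DESeq2 (0.0556) and with every gene of at least 1 read tested (0.0958). MLX shares 770 exon bases with PSMC3IP on the opposite strand. The count was 2 without siAXL 1, 2 without siAXL 2, 2 with DESeq2 and 2 when every gene with at least 1 read was tested. Of 30 genes known as MYC targets, 18 passed, 16 lower and 2 higher, with a median log2 fold change of -0.23, and 26 values lay below 0. GNL3, RRS1 and RRP9, which act in ribosome production, fell by 0.38 (SE 0.0521, limma adjusted p = 0.0051), 0.52 (SE 0.0724, limma adjusted p = 0.00562) and 0.47 (SE 0.0782, limma adjusted p = 0.00954), and kept their calls in each of the 11 settings. NOP58 was the member with the smallest adjusted p among those that rose (0.33, SE 0.0774, limma adjusted p = 0.0294). NOP58 lost its call without siAXL 1 (adjusted p = 0.0881), without siAXL 2 (0.0838), without siCt 2 (0.0834) and with every gene of at least 1 read tested (0.0963). LDHA, a glycolytic enzyme, rose by 0.24 (limma adjusted p = 0.0471), a call lost whenever 1 library was left out, with a pseudocount of 8 (0.0548) and with every gene of at least 1 read tested (0.0880). TCOF1, a factor of ribosomal RNA synthesis, fell by 0.39 (limma adjusted p = 0.0103, or 0.05004 with every gene of at least 1 read tested). The count of 18 was 5 without siAXL 1, 9 without siAXL 2, 10 without siCt 2 and 5 when every gene with at least 1 read was tested. The lists were written from general knowledge, hold no set test and share the libraries with all other genes, of which 1301 passed without siAXL 1 and 1518 without siAXL 2, against 3006 with all libraries.

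**Figure D4:**
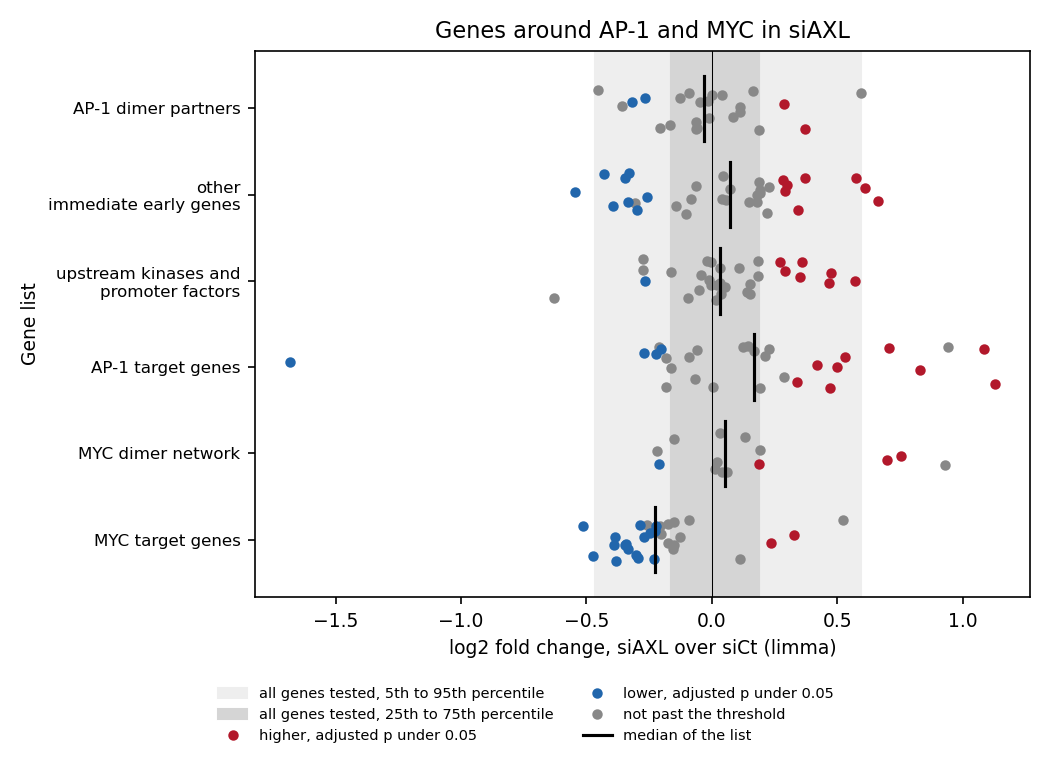
Log2 fold change of siAXL over siCt (horizontal axis) for each tested gene of the 6 lists, 1 point per gene, coloured by the test, with the median of each list as a black bar and grey bands for all genes tested. Most MYC target genes lie left of 0, with a median of -0.23, and the other immediate early genes that passed lie on both sides, 8 higher and 8 lower.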

How the data were processed

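RNA from 4 MDA-MB-231 libraries was compared, 2 with siCt and 2 with siAXL, grouped by their titles. The submitters' processing notes name CASAVA 1.8, TopHat2 2.0.10, HTSeq 0.5.3, DESeq2 1.4.5 and GRCh37, and the strand setting and annotation are not given in the sources used here. The authors deposited this signal as normalized counts, reads per gene over a library-wise DESeq2 size factor. Of these, 100% in every library were whole multiples of 1 read within 0.01 reads, so the reads were recovered, and there were 0 per-sample columns left unused. The authors' own fold changes and p-values, deposited beside them, were not used.

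Because the values are not raw counts, limma 3.58.1 (lmFit and eBayes with a trend, R 4.3.3) was run on log2(normalized count + 1) over the 16064 genes that passed edgeR's filterByExpr. Fold changes on that scale are understated for low genes. The call rule was an adjusted p (Benjamini-Hochberg) under 0.05, with no covariate. edgeR 4.0.16, DESeq2 1.42.0, other scalings, pseudocounts and filters, single libraries left out and a replicate block were alternatives. The members and lists were chosen with earlier results of these data known. Named were AXL, the members and, of each list, up to 4 genes per direction with the smallest adjusted p, leaving out genes under an average log2 CPM of 0. One gene that this rule names is not reported here. Exon lengths and overlaps came from GENCODE 29 by Ensembl identifier.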

Additional observations from a re-analysis of the deposited data

How the results depend on the processing

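With 1 library left out, the group of 1 is assumed to vary like the other. AXL then lay between -2.07 and -1.79, and FOSL1 between -0.030 and 0.13, with its sign reversed without siAXL 2. The number of genes called ran from 1301 to 3900 of all tested, 1 to 3 of the 10 genes, 1 to 4 AP-1 dimer partners, 7 to 19 other immediate early genes, 4 to 11 upstream genes, 7 to 12 AP-1 targets, 2 to 6 genes of the MYC network and 5 to 17 MYC targets. Testing every gene with at least 1 read called 1097 of 27108 genes (757 higher, 340 lower). Among the lists it called 1 dimer partner, 8 other immediate early genes and 4 upstream genes. It also called 4 AP-1 targets, 2 of the MYC network and 5 MYC targets. DESeq2 called 2 of the MYC network and gave no adjusted p to FOS or FOSB. Scaling by total reads called 1536 genes higher and 1745 lower, against 1735 and 1271.

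The labels number the libraries of both groups 1 and 2 without saying that a number marks a shared culture or day. Differences between library 1 and library 2 correlated at 0.271 across genes between siCt and siAXL. With the replicate block 7310 of the 16064 genes tested were called, against 3006 without it. Called were 6 of the 10 genes, 8 of 24 dimer partners and 17 of 31 upstream genes. So were 24 of 29 AP-1 targets and 8 of 14 genes of the MYC network. Among the 10, JUN, JUND and EGR1 were added to the calls. With 2 libraries per group the spread of any 1 gene is known poorly.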
